A study of Mus musculus with 40 samples.

Results

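Signal was described at 432 annotated repeat copies that were active early in a serial passage of mouse melanoma cells and nearly silent afterwards. They were chosen by their measured signal: a copy was taken when its mean signal was at least 3 over the 16 early libraries and below 1 over the 24 late ones, and 432 of 835636 annotated copies met both limits. Of the 46402 copies that met the early limit, 0.931% also met the late one. Poly(A) RNA came from cultured cells of YUMM1.7, a mouse melanoma line, and from cells grown out of dissociated tumours of its passages through mice. The late groups are the tumour passages N2.1 with 5 tumours, N2.2 and N2.3 with 3 tumours each, Balb/c-1 with 4 and Balb/c-2 with 3, a second set of 3 libraries labelled as the same Balb/c-2 tumours (rep2), and CBA with 3. The early groups are 3 cultures of the parental cells and tumour passages F0 with 4 tumours, F1 with 4 and F2 with 5.

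Every group descends from 1 line, letters name different tumours, and tumour cells were kept in culture over 1 to 3 passages before RNA was taken. CBA and Balb/c mice are inbred. The sources used here do not say what F and N2 stand for. Reads recovered at repeat copies numbered between 1280522 and 2976730 in late libraries, and between 1502938 and 2050776 in early ones. Signal is whole reads times 1 factor per library, and 1 read was worth between 0.659 and 1.51 units, so a mean of 3 rests on few reads per library. P-values cover only the spread between the tumours or cultures of a passage. Repeat copies sit in few exons of cell type markers: of the melanocyte genes, Gpnmb summed to between 25.1 and 80.4 in late libraries and between 25.2 and 175 in early ones, while Tyr and Mlana reached 1.15 and 0.883 at most in late libraries, and 0 and 1.05 in early ones. Fibroblast list sums lay between 629 and 3186 late and between 747 and 3337 early. The leukocyte list had median sums of 0.972 late and 0 early, with highest sums of 31.4 late and 14.6 early, and the endothelial, keratinocyte and muscle lists had median sums up to 0.481 late, with 25.7 for muscle in 1 library, and 0 early. The part of other cells in the results was not tested.

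Repeat copies are remnants of transposable elements (SINEs, LINEs and LTR retroviruses spread through RNA, DNA transposons by cutting and pasting) and of tandem satellites. Reads at such copies often come from a longer transcript that holds the copy: a copy in an untranslated region or coding exon is part of the mature mRNA, one in an intron reports unspliced or unannotated RNA, and one between genes an unannotated transcript. A copy can also start transcription from its own promoter. Which of these made the reads of a copy was not tested.

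Sequence shared beyond the repeat name was looked for in coding exons, where 16 of the 432 copies lay, 11 of them named MMSAT4 or MurSatRep1. These names are often given to the tandem finger exons of C2H2 zinc finger genes. A short linker joins the fingers and commonly reads threonine, glycine, glutamate, lysine, proline. A search for the linker and the histidine before it, spelled CANACNGGNGANAANCC, found it on the gene strand in 10 of the 11 copies and in none of the other 5. It stood in 775 of the 1377 coding copies of these names with an early mean of at least 3 (56.3%), in 32.9% of all 2357 coding copies at that level, and on the other strand of none. Some of the 11 share a gene, as the 2 overlapping copies of Zfp422 do, so they are not independent. The copies of highest signal in 3 genes that hold the searched spelling, and 1 copy without it, are shown on the gene strand. They run 5′ to 3′, with that spelling in capitals. They are the first 300 bases of the MurSatRep1 copy of Zfp422 (chr6:116626577-116626876, minus strand), MMSAT4 of 9130019O22Rik (chr7:127385200-127385413, minus strand), MurSatRep1 of Zfp2 (chr11:50900718-50900924, minus strand) and MMSAT4 of Zfp467 (chr6:48438804-48438961, minus strand), from GENCODE M21 transcripts on GRCm38.
Zfp422: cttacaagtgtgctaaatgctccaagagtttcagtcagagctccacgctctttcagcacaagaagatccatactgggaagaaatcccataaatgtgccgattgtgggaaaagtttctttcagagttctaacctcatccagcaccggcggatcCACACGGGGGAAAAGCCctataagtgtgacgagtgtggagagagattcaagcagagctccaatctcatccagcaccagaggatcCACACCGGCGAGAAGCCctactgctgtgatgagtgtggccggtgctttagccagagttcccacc
9130019O22Rik: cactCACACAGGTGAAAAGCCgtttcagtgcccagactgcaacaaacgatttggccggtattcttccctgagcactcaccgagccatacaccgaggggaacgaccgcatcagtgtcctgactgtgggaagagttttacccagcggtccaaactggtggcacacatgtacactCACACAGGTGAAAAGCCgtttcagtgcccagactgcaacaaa
Zfp2: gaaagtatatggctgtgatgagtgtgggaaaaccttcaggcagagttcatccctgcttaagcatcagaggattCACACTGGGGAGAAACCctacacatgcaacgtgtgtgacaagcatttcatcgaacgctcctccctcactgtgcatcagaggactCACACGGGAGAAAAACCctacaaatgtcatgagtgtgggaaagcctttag
Zfp467: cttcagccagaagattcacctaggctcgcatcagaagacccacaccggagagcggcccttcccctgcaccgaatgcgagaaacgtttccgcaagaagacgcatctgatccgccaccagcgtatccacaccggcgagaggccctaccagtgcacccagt
The first 3 hold the searched spelling 2 times each. Zfp467 reads arginine for lysine in cacaccggagagcggccc and cacaccggcgagaggccc, so the search, which required lysine, did not count it. Genes with symbols beginning Zfp, Zkscan, Zscan or Zbtb were near the level of all genes. Of 366 such genes with an active copy, 9 hosted a lost copy (2.46%), against 210 of all 10019 genes (2.096%). That choice by symbol leaves out 9130019O22Rik, which hosted 4 lost copies.

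The rule set the boundary of early and late between F2 and N2.1, and the summed signal was already low in N2.1. Summed over the 432 copies, signal lay between 248 and 396 in the 5 N2.1 libraries, against 1906 to 3773 in the 5 F2 libraries before them. Over all late libraries the lowest, median and highest sums were 136, 194 and 396, and over all early ones 1772, 2957 and 5816. No late library overlapped an early one, which the choice of the copies fixes, so no test is given. In bulk RNA, fewer cells with a signal and less signal per cell cannot be told apart. Copies without reads numbered 241 to 358 in late libraries and 65 to 151 in early ones. A group mean of at least 1 was kept by 134 copies in N2.1, against 69 in N2.2, with 99 for N2.3, by 63 to 69 in the Balb/c groups and by 81 in CBA. Between 375 and 394 copies had one in the early groups. The reverse set, with a late mean of at least 3 and an early mean below 1, held 2092 of 54734 copies.

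**Figure D1:**
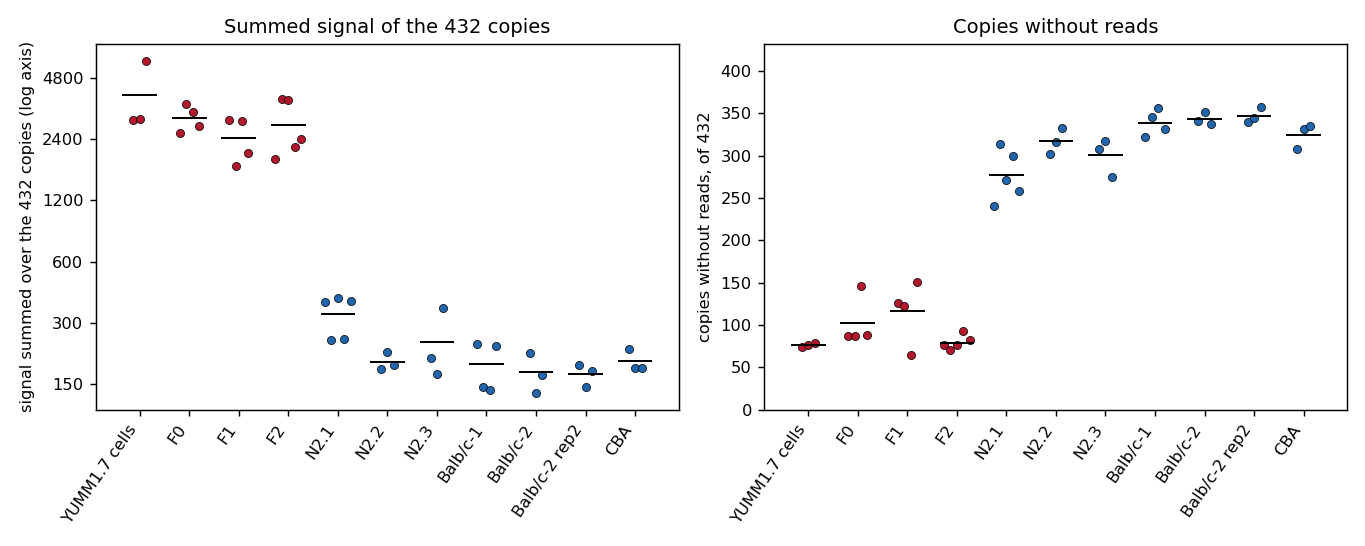
Signal summed over the 432 copies (left, log axis) and the number of them without reads (right) in each library, with passages in order. Points are libraries, bars group means, red early and blue late. Sums lie between 248 and 396 in N2.1, against 1906 to 3773 in F2.

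Some copies kept a little signal. The highest late means were those of B1_Mur4 in an intron of Faxc (0.99996), B4A in a coding exon of Arl4a (0.997) and RLTR30B_MM in the 3' UTR of Acot6 (0.997), which also are the copies just inside the late limit. Just outside it were L1MdFanc_II in Syne1, Tigger20a in Calr4 and B3A in Pygo1 (1.0003, 1.002 and 1.002). Just inside the early limit lay MTA_Mm~MTA_Mm-int in Miga1, B1F1 in Esrra and an L1ME3Cz (3.002, 3.005 and 3.005), and just outside it RLTR25B in Gm11077, an L1MdV_II and an RMER17C (2.997, 2.995 and 2.988). In 24 copies no late library had a read, and in 192 at most 5 of the 24 did. Early means at least 10 times the late mean were found in 208 copies. In 9 of the 432 every early library lay above every late one, a pattern of 0.056% of the copies with an early mean of at least 3, and the rule used the same contrast.

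Among these 9 was B1F in the 3' UTR of Pard3b, a relative of the cell polarity protein Par3 (chr1:62639964-62640062). It reached 7.28 at most in the 24 late libraries. YUMM1.7 cultures had 47.4, 52.5 and 30.9, F0 tumours 38.4, 29.5, 25.5 and 34.8, F1 tumours 26.3, 19.13, 29.95 and 32.0, and F2 tumours 31.0, 39.4, 27.4, 59.3 and 38.2. Every early library was above every late one, and no early group stood apart. The other 8 were MER20 in Rasgrf1, Tigger10 in Klhl13, B4 in Nrk, the MMSAT4 copy of 9130019O22Rik at chr7:127384529-127384667, Charlie15a in Xylt1, B4 in Thsd4, and the intergenic L1MdF_III and Lx5b.

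Most of the 432 copies were weak. Early means lay between 3 and 5 in 272 copies, between 5 and 10 in 112, between 10 and 20 in 28, between 20 and 50 in 15 and at 50 or more in 5. The copies of the rule were 1.72%, 0.827%, 0.381%, 0.307% and 0.105% of all copies in the same steps of level. Reads were present in at least 12 of the 16 early libraries for 336 copies and in all 16 for 69.

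Copies between genes were a larger share of the lost copies than of the active copies. They made up 140 of the 432 (32.4%), against 10.7% of the copies with an early mean of at least 3. Introns held 143 (33.1%, against 49.1%), 3' UTRs 78 (18.1%, against 19.5%), noncoding exons 52 (12.04%, against 14.3%), coding exons 16 (3.70%, against 5.08%) and 5' UTRs 3 (0.694%, against 1.35%). Within bands of level, between 3 and 5, 35.3% of the lost copies were intergenic, against 12.1% of all copies in the band, and between 5 and 10, 29.5% against 11.2%. These are counts of 1 selection and carry no test. Of the 140, 72 lay within 5 kb of the nearest gene and 128 within 50 kb. Of the 292 copies in genes, 236 lay in protein-coding genes, and 51 in lincRNA, antisense, processed transcript or bidirectional promoter genes.

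**Figure D2:**
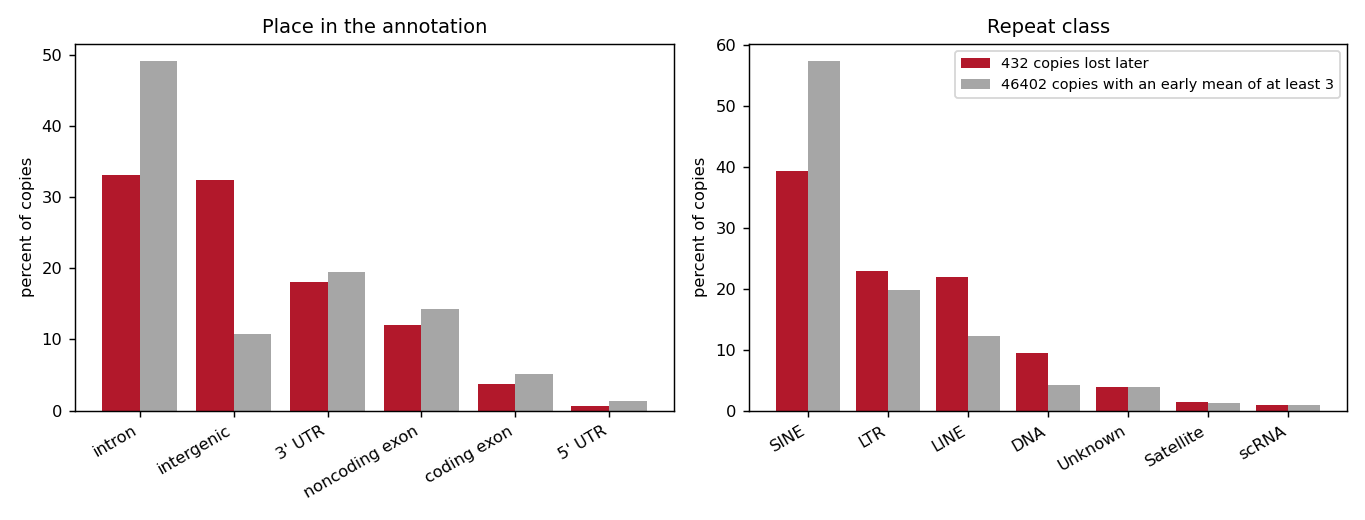
Percent of copies by place (left) and repeat class (right), red for the 432 lost copies and grey for the 46402 copies with an early mean of at least 3. Intergenic copies make 32.4% of the lost copies and 10.7% of all 46402.

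By class, SINEs were the largest, with 170 copies (39.4%, against 57.3% of active copies). LINEs had 95 (21.99%, against 12.2%), LTR elements 99 (22.9%, against 19.8%) and DNA transposons 41 (9.49%, against 4.22%). Smaller classes were Unknown (17), Satellite (6) and scRNA (4), each at 3.94%, 1.39% and 0.926% of the lost copies, against 3.92%, 1.23% and 0.933% of the active ones. No subfamily dominated: the 432 copies carried 185 repeat names, 107 of them once. The most frequent were ID_B1 (20), B3 (16), B1_Mus1 and B1_Mus2 (13 each), MurSatRep1 (11), RSINE1 (10), B3A (9) and, with 8 each, B4 and B4A. ID_B1, B3 and RSINE1 were a smaller share of the lost copies (4.63%, 3.70% and 2.31%) than of the active ones (5.49%, 6.91% and 4.72%). Tigger1 had 4 lost copies of only 9 active ones, all 4 in Rasgrf1.

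The strongest single locus was Rasgrf1, a Ras activator gene that is imprinted in mice and expressed from the paternal allele. All 15 of its copies with an early mean of at least 3 were lost, across 103.65 kb of chromosome 9 (chr9:89915833-90019486), 14 in introns and 1, BC1_Mm, in the 3' UTR. Summed over the 15, N2.1 libraries had 22.7, 6.14, 2.08, 3.53 and 1.504. In 16 of the 19 later libraries the sum was 0, and it was at most 1.51 in the others. YUMM1.7 cultures had 449, 246 and 282, F0 tumours 176, 723, 650 and 266, F1 tumours 15.8, 57.4, 120 and 16.9, and F2 tumours 125, 192, 216, 76.5 and 397. All F1 tumours lay below all F0 tumours and parental cultures, F1 D overlapped F2, and F1 A and F1 E lay below N2.1 A. The gene held between 0.533% and 20.3% of the signal of all 432 copies across early libraries.

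Its highest copies were ID_B1 (chr9:90019290-90019486, mean 0.740 late and 108 early) and MER20 (chr9:90017589-90017753, 0.0700 late and 62.1 early). MER20, a DNA transposon, had 9.66, 10.1, 22.5 and 5.64 in F1 and 39.3, 187, 133 and 49.3 in F0. No F1 tumour reached the lowest F0 tumour. It was the 1 member that passed the test in the 4 comparisons among early groups, lower in F1 than in F0 with a log2 fold change of -2.86 (SE 0.45, limma adjusted p = 0.036). In that comparison 0.00431% of the 46402 copies tested were called lower, which is 2 copies, and 0% higher. The other 14 Rasgrf1 copies also had log2 fold changes below 0, from -1.27 to -3.67, with limma adjusted p between 0.061 and 0.53. The copies share 1 gene and are not independent. The call was lost without F0 B, F0 C or F1 A (adjusted p = 0.123, 0.158 and 0.0805), and with the intron share of the library, 14.6% to 21.5% in F1 and 21.1% to 25.3% in F0, as a covariate (adjusted p = 0.298). In F2, MER20 had 37.4, 45.9, 53.7, 28.7 and 131.

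No other difference of a member between early groups passed the test. F0 against YUMM1.7 cells gave 0 called members, with 0% of all copies called in either direction and 37 members, 3 of them higher, at an unadjusted p under 0.05. F2 against F1 gave 0 called members and 0% of all copies, with 47 members at an unadjusted p under 0.05, 36 of them higher. F2 against YUMM1.7 cells gave 0 called members, with 0.0151% of all copies called higher and 0% lower, and 41 members at an unadjusted p under 0.05, 19 of them higher. F1 against F0 had 66 members at an unadjusted p under 0.05, 23 of them higher. A copy that met the early limit through 1 group had to differ there, so these counts of members only describe. Those shares over all copies were 6.79%, 6.12%, 5.64% and 12.1% for F0 against YUMM1.7 cells, F2 against F1, F2 against YUMM1.7 cells and F1 against F0. The median log2 difference of the members in F1 against F0 was -0.09, beside -0.28 over all copies (0 beside -0.16 with TMM scaling), and in F2 against F1 0.32, beside 0.10. In F0 against YUMM1.7 cells, F1 against F0, F2 against F1 and F2 against YUMM1.7 cells, edgeR called 0, 0, 0 and 1 members. DESeq2 called 0, 1, 3 and 0 members in that order. Over all 46402 copies edgeR called 0, 0, 0 and 5, and DESeq2 0, 95, 9 and 24, in that order. The member that DESeq2 called in F1 against F0 was not MER20, to which DESeq2 gave no adjusted p. The test had little reach here, since in simulated F1 against F0 data it called 15% of 4-fold and 2% of 2-fold changes.

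The zinc finger gene Zfp422 lost 2 overlapping copies in its coding exon, MurSatRep1 and MMSAT4, so their sum counts shared sequence. MurSatRep1 (chr6:116626508-116626876) had reads in only 2 of 24 late libraries, at most 3.36. YUMM1.7 cultures had 58.1, 57.5 and 65.7, F0 tumours 22.8, 26.0, 0 and 45.4, F1 tumours 4.39, 68.6, 41.7 and 0.940, and F2 tumours 20.96, 78.7, 59.0, 21.99 and 70.9. It was already at or near 0 in F0 C and F1 E and low in F1 A. The 4 copies of 9130019O22Rik (chr7:127383525-127385413), 2 in its coding exon, ran more evenly. Their sum lay between 0 and 12.6 in late libraries (median 1.59) and between 23.2 and 92.7 in early ones (median 52.6), without overlap. The 4 copies of Zfp2, 3 of them coding, summed to 0 in 19 late libraries but to 24.2 in N2.3 C and 15.6 in N2.1 C, against 3.06 to 31.1 in early ones. The 3 coding copies of Zfp108 summed to 0 to 6.02 in late libraries, against 2.82 to 21.9 in early ones.

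**Figure D3:**
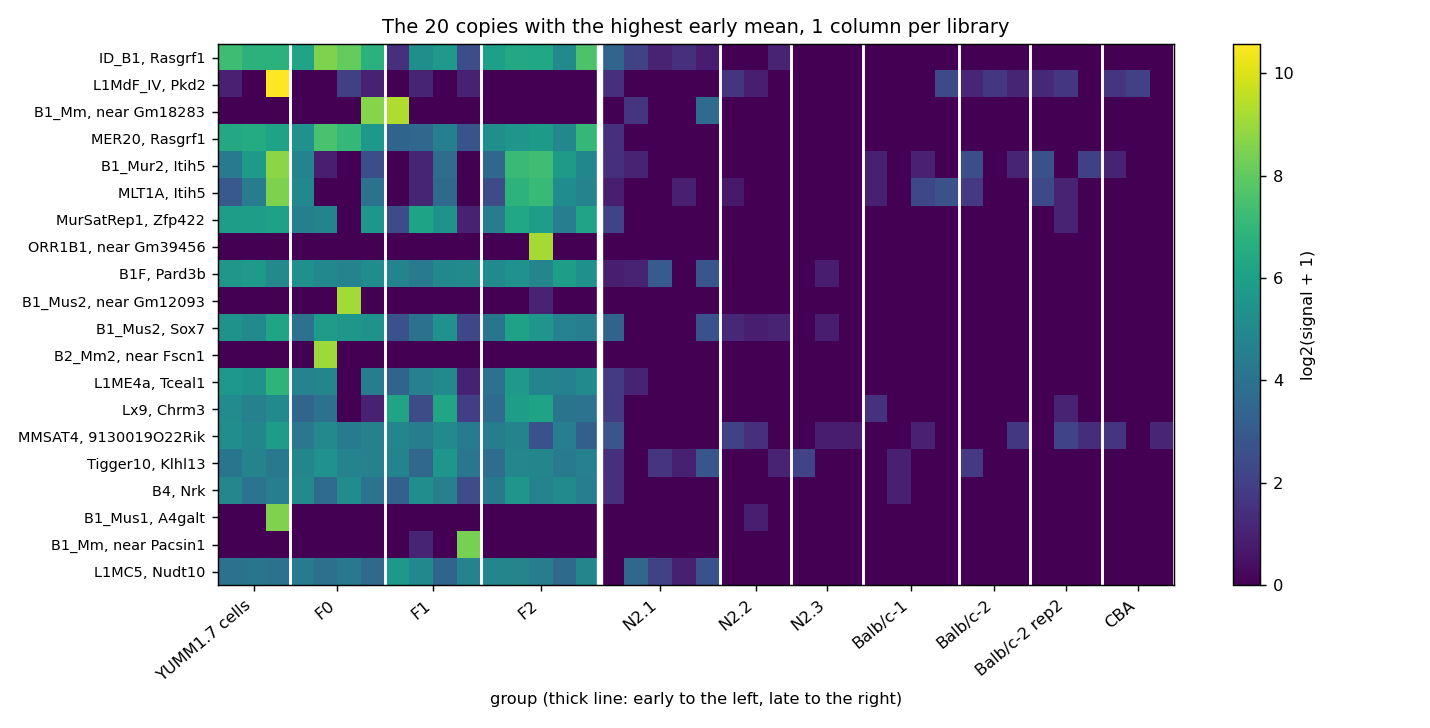
Signal as log2(signal + 1) of the 20 copies with the highest early mean, 1 row per copy with its gene and 1 column per library. Most rows are high across the early groups and dark from N2.1 on, and 7 rows are high in 1 or a pair of early libraries.

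Itih5 encodes a heavy chain of the inter-alpha-trypsin inhibitor family, which binds hyaluronan. B1_Mur2 in its 3' UTR (chr2:10254836-10254962) reached at most 5.32 in late libraries. YUMM1.7 cultures had 19.4, 53.5 and 430, F0 tumours 26.5, 0.867, 0 and 4.83, F1 tumours 0, 1.125, 12.8 and 0, and F2 tumours 10.9, 144, 160, 52.6 and 28.2. Culture 3 of the parental cells alone held 45.5% of its early signal, and most F0 and F1 tumours were low or at 0. The neighbouring MLT1A was also highest in that culture, with 356. The gene's Lx8 and B4 copies missed the late limit with 1.04 and 1.35, against 68.6 and 65.3 early.

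Other exon copies among the 20 highest showed less spread. Tigger10 of Klhl13, an adaptor of the ubiquitin ligase Cul3, had 0 to 6.02 late (mean 0.766) and 10.1 to 46.0 early (mean 24.3). B4 of Nrk, a kinase gene on the X chromosome, had 0 to 1.68 late and 4.70 to 47.0 early. L1MC5 in the 3' UTR of Nudt10, a diphosphoinositol polyphosphate phosphatase, had 0 to 10.2 late and 9.63 to 49.2 early. Of the 3, late and early libraries overlapped in Nudt10 alone, through N2.1 B. B1_Mus2 of the transcription factor gene Sox7 had 0 to 9.24 late and 3.76 to 70.5 early, and F1 A and F1 E were its lowest early libraries. L1ME4a of Tceal1 had 0 to 2.52 late and 0 to 118 early, with 0 in F0 C and 0.940 in F1 E. Lx9 in the 5' UTR of Chrm3, a muscarinic acetylcholine receptor, had 0 to 2.52 late and 0 to 75.9 early, with 0 in F0 C and 0.967 in F0 D. Klhl13, Nrk, Nudt10 and Tceal1 are on the X chromosome, which held 20 of the 432 copies (4.63%), against 2.63% of active copies.

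**Figure D4:**
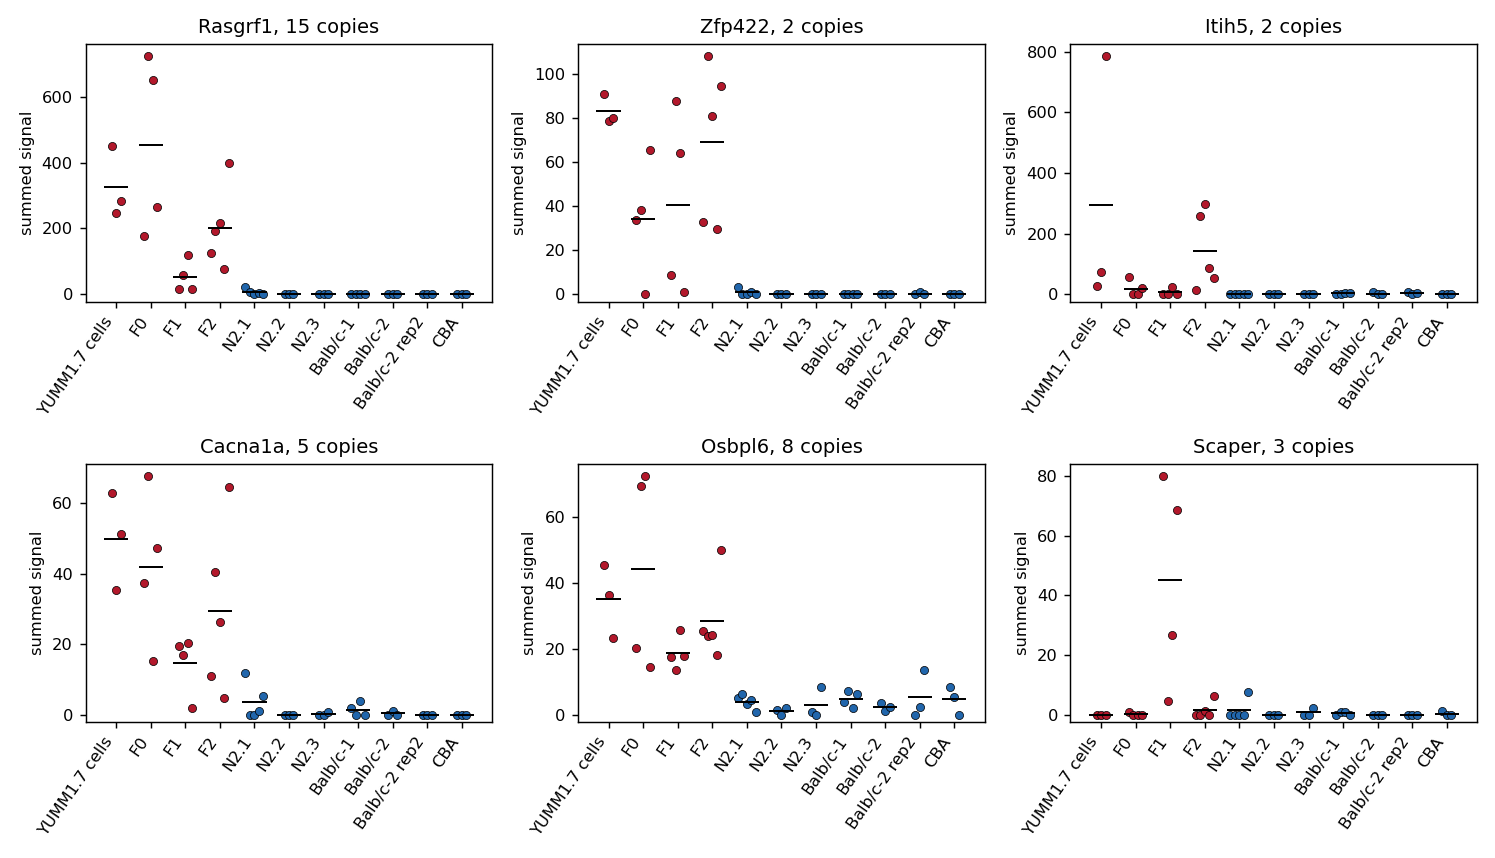
Signal summed over the lost copies of 6 genes in each library, by group in passage order (red early, blue late, bars group means). Rasgrf1 is lowest in F1 among early groups, Zfp422 and Itih5 vary between tumours, and the 3 Scaper copies are highest in F1.

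F0 C and F1 E held the most early zeros, 146 and 151 of 432, and 63 copies were at 0 in both. Of the members with an early mean below 10, 32.0% were at 0 in F0 C and 34.1% in F1 E. Of the other copies with an early mean from 3 to below 10, 4.63% and 4.49% were. In the other early libraries members were also more often at 0, as with 18.75% against 2.29% in F0 A and 12.5% against 11.95% in F1 D. Early means of 272 members lay between 3 and 5, and level was not matched more closely. F1 A and F1 B followed with 126 and 123. F1 D had the fewest, 65. The pair with most zeros in common was F1 A with F1 E, 72.

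The copies were grouped into clusters. Joined where the next copy began within 100 kb, 125 copies formed 29 clusters of at least 3, 76 formed 38 pairs and 231 stood alone. In 17 clusters every copy with an early mean of at least 3 was a member. In 2 clusters some copy kept at least 50% of its early mean, which are those of Zfp2 with Adamts2 and of Cemip. Of the 210 host genes, 101 had no other active copy, and 51 of the remaining 109 had only other copies with a late mean below 50% of the early one. In 32 of the 109 no other copy was that low.

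After Rasgrf1, Osbpl6, an oxysterol-binding protein relative, had most copies, 8, of which 7 formed a run of 20.6 kb on chromosome 2 with early means between 3.04 and 4.77 (L2a). Summed over the 8, libraries had 0 to 13.6 late (median 2.70) and 13.5 to 72.5 early (median 24.1). Its 2 other active copies were also lower late, MT2B with 1.62 late and 14.0 early, and LTR88b with 2.09 late and 14.8 early. Cacna1a, the pore subunit of a P/Q-type calcium channel, lost all 5 of its copies, led by BC1_Mm (0.394 late, 12.3 early). Their sum was 0 in 17 late libraries and at most 11.8, against 1.88 to 67.7 early (median 30.8), and F1 E was the lowest early library.

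Cemip, a hyaluronan-degrading protein, lost 5 copies led by B4 (0.708 late, 8.85 early). Their sum was 0 to 23.5 late and 0 to 213 early, with F0 A at 213. The RLTR1B copy in its 3' UTR kept 12.7% of its early mean (32.8 ± 54.2 late, 259 ± 304 early, SD), and MER33 had 3.92 late and 3.22 early. Chrdl1, a BMP antagonist, lost 4 copies in its 3' UTR, led by L1ME4a (0.870 late, 7.78 early). Their sum was 0 in 15 late libraries but 27.6 in Balb/c-1 A, against 0 to 90.7 early. The antisense gene 9530026P05Rik had 4 lost copies, 3 of them in a cluster with 2 of Gm44220 led by ORR1A3 (7.26 early), whose sum averaged 58.3 in F2, the highest group.

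Scaper, a cyclin A-associated protein, had intronic L1MdA_III, L1MdF_II and Lx3B copies read mostly in F1. Their sum was 79.9, 4.5, 26.7 and 68.6 in F1 A, B, D and E. It was 0 in all 3 YUMM1.7 cultures, at most 0.914 in F0, at most 6.36 in F2 and at most 7.52 in late libraries. The copies met the early limit through F1 alone, so no test of F1 is given for them. The L1MB8 copy in the gene's 5' UTR had 37.1 ± 11.9 late and 32.0 ± 8.67 early (SD, n = 24 and 16). Pde6b, the beta subunit of the rod phosphodiesterase, with Gm10419 had 4 copies (B1_Mus1 highest, 7.35 early). Their summed means were 1.61 for YUMM1.7 cells, 41.3 for F0, 44.7 for F1 and 7.54 for F2. In each of the 2 Pde6b copies 1 early library held over 50% of the early signal, so these means can rest on single libraries.

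Other gene clusters had their highest group sum in F1 or F2. The 3 copies of Emx2os, a noncoding gene antisense to Emx2, summed on average to 2.61 for YUMM1.7 cells, 3.25 for F0, 22.9 for F1 and 34.7 for F2, and were at 0 in 23 late libraries (MTEa highest, 6.47 early). Those of A830036E02Rik, led by LTR84a (5.77), averaged 0.323, 6.07, 12.9 and 28.1 in the same order. Eml6, a microtubule-associated protein relative, held L1MdMus_II at 0.685 late and 15.95 early, and its sum averaged 28.7, 14.1, 34.6 and 45.9 in that order. Single libraries of Emx2os had 0 to 56.3 in F1 and 9.56 to 91.8 in F2. Those of Eml6 had 0.94 to 103 in F1 and 15.3 to 112 in F2, so these group means can rest on few tumours. The 3' UTR of Pygo1, a Wnt coactivator, held ID_B1 at 0.843 late and 13.2 early, and its sum reached 20.8 in N2.1 C, against 1.02 to 44.8 early. Clusters of Dmp1 (MER5A highest, 3.45), a bone and dentin matrix protein, of Gm13110 (MTEa, 4.70) and of A230028O05Rik (ID_B1, 5.20) were highest in YUMM1.7 cells or F0. So were those of C030034L19Rik with Zfp704, of 9330182L06Rik and of Slc14a1 with Siglec15. Their highest copies lay between genes: IAPEY4_I-int (6.59), MLT1C2 (6.599) and MLTR14 (4.34), in that order.

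Clusters without a host gene were named by the nearest gene. The 5 copies near Gm13994 (L1Lx_I highest, 7.64 early) spanned 9.93 kb and summed to 0 to 9.78 late and 1.83 to 50.1 early. The 4 copies near Clec10a (B3, 8.28) spanned 3.68 kb and summed to 0 to 26.3 late, with 26.3 in N2.1 E and 12.5 in N2.1 C, against 6.15 to 67.4 early. The 4 near Gm30808 (ORR1E, 5.17) summed to 0 to 6.45 late and 0 to 42.6 early. The 3 copies near Eml5 (B4, 6.66) averaged 2.29 for YUMM1.7 cells, 2.42 for F0, 36.6 for F1 and 19.6 for F2. Single libraries had 0 to 102 in F1, highest in F1 D, and 2.87 to 76.5 in F2, highest in F2 B. The F1 and F2 means there rest on few tumours. The highest copies near 4930474B08Rik (MTD), Gm18486 (Lx4B), Ccn3 (MTC), and AL805899.2 and Wincr1 (Lx8b) had early means of 5.50, 6.07, 4.92 and 4.02.

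A separate kind of member rested on 1 library. In 53 copies 1 early library held over 50% of the early signal, in 29 over 90%, and 26 copies had reads in at most 2 early libraries. L1MdF_IV in an intron of Pkd2, the polycystin channel gene (chr5:104469647-104470668), had 1526 in YUMM1.7 culture 3, 0.968 and 0 in the other cultures and at most 3.06 in any other early library, and 4.16 at most in late ones. ORR1B1 near Gm39456 had 567 in F2 C and 0 in every other library, and B2_Mm2 near Fscn1 had 522 in F0 B and 0 elsewhere. B1_Mm near Gm18283 had 630 in F1 A, 407 in F0 D, 12.04 at most in late libraries and 0 in the other early ones. B1_Mus2 near Gm12093 (550 in F0 C), B1_Mm near Pacsin1 (340 in F1 E) and B1_Mus1 in an intron of A4galt (369 in YUMM1.7 culture 3) followed the same pattern. B1, B2 and L1Md families hold many near-identical copies, and the sources used here do not say how reads matching several copies were placed.

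SINEs were 33 of the 53 (62.3%), against 137 of the other 379 members (36.1%), and 24 of the 53 were intergenic (45.3%), against 116 of the others (30.6%). No library held more than 8 of them (F0 C and F1 A, 8 each). Without the 53, the summed signal was 128 to 375 in late libraries and 1132 to 3703 in early ones. The rule chose the remaining copies too, so their separation is no test of the loss.

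**Figure D5:**
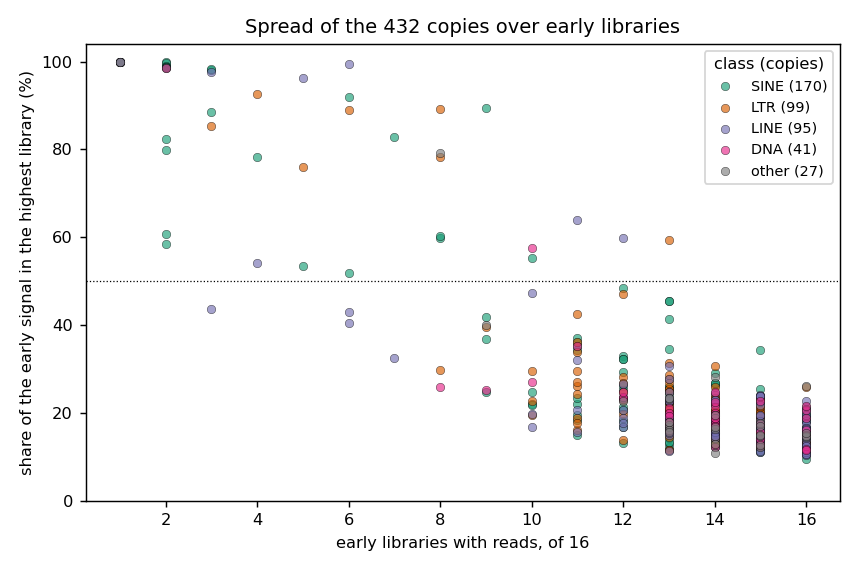
Share of a copy's early signal in its highest library (percent) against the number of early libraries with reads (of 16), 1 point per copy, coloured by class. Above the dotted line at 50% lie 53 copies, and 336 copies have reads in at least 12 libraries.

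Of the gene lists, imprinted genes had 2 of 8 with an active copy among the hosts (25%, against 2.096% of all genes), Rasgrf1 with 15 copies and Grb10 with 1. The list names Rasgrf1 and was chosen with earlier results of these data known, so this share is no test. The list as a whole was not lost: its exon copies summed to between 204 and 17620 late (median 338) and between 243 and 684 early (median 369). Igf2 reached 17100 late and 4.70 early, and Plagl1 295 late and 24.6 early. The list is not complete: Rian, an imprinted noncoding gene that is not on it and was picked after its values were seen, hosted an Lx copy with 0.413 late and 6.49 early. Matrix genes had 3 of 34 (Adamts2, Col4a6 and Itih5), and genes with only a predicted or Rik name 41 of 1339 (3.06%, against 2.096% of all genes). No gene of the melanocyte, fibroblast, leukocyte, endothelial, keratinocyte, muscle, Y-linked, germline, Hox or olfactory lists hosted a lost copy. Few could have: 1 melanocyte, 4 fibroblast, 1 endothelial, 3 Y-linked, 1 germline and 8 olfactory genes had an active copy, and no gene of the other lists did. Promoter sequences from RefSeq (GRCm38.p6, 300 bases around the start) matched 149 of the 210 host genes. At least 10 CG pairs stood in 73.8% of them, against 87.2% of the 7478 matched genes with an active copy, and the median was 18 against 22 per promoter.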

How the data were processed

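Poly(A) RNA libraries were measured at single repeat copies. The deposited table holds signal: per the values, the authors multiplied whole reads by 1 factor per library (100% of values within 0.1 of a read). featureCounts 1.5.0-p3, StringTie 1.3.3b, HISAT2 2.0.5 and the build mm10 are listed, without roles, per the submitters' processing notes. The sources used here do not give the repeat annotation, the strand of each library or the treatment of multiply mapped reads, so near-identical copies and overlapping genes are uncertain. Places come from GENCODE M21 by overlap (bedtools 2.31.1), coding before other exons, exons before introns. Clusters join neighbouring members within 100 kb. Members of 1 gene farther apart were left separate, though the planned rule would also have joined them. Early against late values were used by the rule and are not tested. Early groups were compared by limma 3.58.1 on log2(signal + 1), trended prior, two-sided, over the 46402 copies with an early mean of at least 3, with Benjamini-Hochberg adjustment and a call under 0.05. The code was tested on simulated data. The members, lists and comparisons were chosen with earlier results of these data known. The named copies are the 20 with the highest early mean, called members, clusters of at least 3, the copies nearest each limit and the highest late means. Alternatives used TMM, edgeR 4.0.16 and DESeq2 1.42.0 on recovered reads, in R 4.3.3; figures used Python 3.11.15. The labels do not say which library belongs to which batch, and batch was not a term. Library names of the Balb/c-2 rep2 and CBA libraries alone carry added codes, which look like run codes but are not explained. Both groups are late, so such a difference cannot be told apart from passage there.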

Additional observations from a re-analysis of the deposited data

Results flagged for a closer look

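In 27 of the 145 sets of 4 or 5 libraries of 1 group that were examined, the highest library stood apart from the rest by Dixon's criterion at 95%. The criterion flags about 5% of sets of normally distributed values by chance. That rate does not hold here, since many values are 0, values of 1 gene or library are not independent, and copies read in 1 or 2 early libraries met the early limit through them. F0 C had 146 of the copies without reads, the most in F0.

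Among single copies, N2.1 A had 10.08 for ID_B1 in Rasgrf1 and F2 E had 130.9 for MER20 in the same gene. F1 D had 12.84 for B1_Mur2 and 11.77 for MLT1A in Itih5. B1_Mm near Gm18283 stood apart in F1 A with 629.7 and in F0 D with 407. ORR1B1 near Gm39456 reached 567 in F2 C, B1_Mus2 near Gm12093 550.5 in F0 C, B2_Mm2 near Fscn1 522.2 in F0 B and B1_Mm near Pacsin1 340.4 in F1 E.

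Among sums over the copies of a gene or cluster, N2.1 A was apart for Rasgrf1 (22.67) and 9130019O22Rik (12.6), and N2.1 C for Zfp2 (15.59) and Pygo1 (20.78). F2 B was apart for Chrdl1 (90.74), Emx2os (91.83), the copies near Eml5 (76.53) and those near Gm18486 (56.85), and F2 E for Osbpl6 (49.98). F1 A was apart for Zfp2 (21.08), and F1 D for Itih5 (24.6) and the copies near Gm30808 (18.18). F0 A was apart for Tmem252 (99.61) and Ednra (70.37), F0 B for the copies near Gm30808 (38.17), and Balb/c-1 D for those near Eml5 (14.57).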

How the results depend on the processing

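The 432 copies depend on the limits: 160 were left with an early mean of at least 5 and 1308 with at least 2, 199 with a late mean below 0.5 and 1660 with below 2, and 229 with an early median of at least 3. TMM scaling gave 573 and leaving out each library in turn 418 to 472. The intergenic share was 27.5% with an early mean of at least 5, 26.2% with a late mean below 2, and 31.0% to 34.2% without each library. Rasgrf1 held 9 copies with an early mean of at least 5, 25 with at least 2, and 13 to 16 without each library.

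The count of called members in F1 against F0, 1 in the reported fit, was 2 with TMM, 3 with a pseudocount of 4, 16 without a filter on low values and 13 with all 40 libraries in 1 fit. Calls over all copies were 2 in the reported fit, 4 with TMM and 4 with a pseudocount of 4. They were 387 of 521712 copies without a filter and 105 of 46402 with all 40 libraries. The member count was 0 with a pseudocount of 0.5, an early mean of at least 10, the 2 groups alone, the intron share as a covariate, the replicate block and edgeR. It was 0 to 4 without each library. Without a filter, F0 against YUMM1.7 cells gave 7 called members, F2 against F1 gave 11 and F2 against YUMM1.7 cells gave 6. Over all 521712 copies these comparisons gave 201, 242 and 224 calls. All 40 libraries in 1 fit gave 3 called members in F2 against F1, of 3 calls over all copies. In F2 against YUMM1.7 cells that fit gave 1, of 11 calls. DESeq2 gave 3 in F2 against F1, of 9 calls, and edgeR 1 in F2 against YUMM1.7 cells, of 5 calls. The cause was not tested. Both the unfiltered fit and that of all libraries include many values near 0, and their calls were not used.

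MER20 in Rasgrf1 stayed lower in F1 under every alternative that gave it an adjusted p, at -3.21 to -2.47 without each library (limma adjusted p 0.00617 to 0.158). DESeq2 gave it no adjusted p, so the member that DESeq2 called in F1 against F0 was another copy. Its call was lost with a pseudocount of 0.5 (-2.92, adjusted p 0.0517), an early mean of at least 10 (-2.86, 0.124), the 2 groups alone (-2.86, 0.136), the intron share (-2.76, 0.298), the replicate block (-2.37, 0.372) and edgeR (-2.82, 0.0624). Deviations of same-lettered tumours from their group means correlated at -0.128 to 0.233, so the letters were not taken as pairs, and no block could be fitted with the parental cultures, which carry none. Low read numbers limit most copies, and their zeros are not evidence of silence.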
